A study of Mus musculus with 40 samples.

Results

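Purinergic signaling in the CD11b+ cells of mouse gliomas was described here through 10 genes: the P2Y receptors P2ry12, P2ry13 and P2ry6, the P2X channels P2rx4 and P2rx7, the adenosine receptors Adora2a, Adora2b and Adora3, and the ectoenzymes Entpd1 and Nt5e. They were chosen by name as members of this pathway, with earlier results of these data known. They correspond to 10 of the 54513 gene rows in each of 3 expression tables. CD11b+ cells, a gate that takes in microglia, monocytes, macrophages and other myeloid cells, were sorted from brain hemispheres of mice of 10 to 12 weeks of age. RNA was measured by poly-A selected, strand-specific sequencing, and 35 of the 40 samples of the series had a column of values.

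The first table held GL261 samples at 21 days after implantation in C57BL6 mice, with 3 samples each of naive mice and of tumor-bearing mice given solvent (vehicle), RGD peptide or RAE peptide. GL261 is a murine glioma line, here carrying tdTomato and luciferase, although the labels call it human. Each sample pooled 2 animals, and the peptides were delivered into the tumor by osmotic pumps at 2 mg/ml. The RGD peptide carries the arginine-glycine-aspartic acid motif that binds integrins, and in the RAE control peptide the glycine and aspartic acid of this motif are replaced by alanine and glutamic acid. The second table held tumors at 28 days, each sample from 1 animal, with 4 samples of vehicle, 4 of RGD, 3 of anti-PD-1 antibody (10 mg/kg) and 3 of RGD with anti-PD-1. The labels call these animals nude mice, whereas the study's methods describe GL261 tumors in C57BL/6 mice with a control IgG in the groups without antibody. The third table held 3 samples each of vehicle, RGD and RAE from nude mice, which lack mature T cells, bearing the human U87-MG glioma line at 21 days, 2 animals per sample. Naive nude mice were not analysed here, and the 3 tables had been normalized separately, so that no test was made between them.

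Extracellular ATP and ADP act on P2X channels and P2Y receptors, and the ectoenzymes CD39 (Entpd1) and CD73 (Nt5e) convert them in steps to AMP and adenosine, which acts on adenosine receptors. P2RY12 is a receptor for ADP that guides microglial processes toward injured cells, and its gene is one of the best known markers of resting microglia. Adenosine acting through the receptors encoded by Adora2a and Adora2b raises cAMP and is known to dampen immune responses in tumors.

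Positions are those of the mm10 assembly. P2ry12 (3:59216272-59262871, minus strand) and P2ry13 (3:59207892-59210882, minus strand) were neighbors, and both lay within Med12l on the opposite strand. P2rx7 (5:122643911-122691432) and P2rx4 (5:122707544-122729738) were also neighbors. Adora3 (3:105870858-105908926) shares its strand and part of its locus with Tmigd3, so that its reads may not be fully separable from those of that gene. The remaining members were P2ry6 (7:100937630-100974649), Adora2a (10:75316877-75334784), Adora2b (11:62248984-62266453), Entpd1 (19:40612366-40741602) and Nt5e (9:88327197-88372092).

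Because the receptor genes differed in direction between naive and tumor-bearing brain, the 250 bases before the RefSeq start are shown for P2ry12, P2ry13 and Adora3, which were lower in tumors, and for Adora2b, which was higher. They were read on the gene's strand in the GRCm38.p6 (mm10) build, and RefSeq promoters were matched for 8 of the 10 members, the others being P2ry6 and Adora2a. Capitals mark GAGGAA, the core recognized by the myeloid factor PU.1, and ACGTG, the core of the hypoxia response element, on either strand.

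P2ry12 at chr3:59262986-59263235, minus strand: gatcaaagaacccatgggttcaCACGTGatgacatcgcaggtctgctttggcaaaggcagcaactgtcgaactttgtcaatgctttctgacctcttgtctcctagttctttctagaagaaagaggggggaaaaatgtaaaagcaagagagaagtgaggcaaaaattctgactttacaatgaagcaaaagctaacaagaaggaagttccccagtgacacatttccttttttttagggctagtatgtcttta
P2ry13 at chr3:59210883-59211132, minus strand: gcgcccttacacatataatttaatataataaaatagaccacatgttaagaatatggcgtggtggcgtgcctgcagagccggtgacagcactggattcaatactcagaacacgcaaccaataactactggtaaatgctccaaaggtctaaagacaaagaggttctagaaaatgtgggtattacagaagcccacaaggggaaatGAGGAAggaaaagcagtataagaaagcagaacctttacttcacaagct
Adora3 at chr3:105904171-105904420, plus strand: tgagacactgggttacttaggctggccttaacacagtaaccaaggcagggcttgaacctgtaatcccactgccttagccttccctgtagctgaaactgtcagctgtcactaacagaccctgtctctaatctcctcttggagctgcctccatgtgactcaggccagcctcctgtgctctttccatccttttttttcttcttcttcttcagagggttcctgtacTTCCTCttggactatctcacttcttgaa
Adora2b at chr11:62248734-62248983, plus strand: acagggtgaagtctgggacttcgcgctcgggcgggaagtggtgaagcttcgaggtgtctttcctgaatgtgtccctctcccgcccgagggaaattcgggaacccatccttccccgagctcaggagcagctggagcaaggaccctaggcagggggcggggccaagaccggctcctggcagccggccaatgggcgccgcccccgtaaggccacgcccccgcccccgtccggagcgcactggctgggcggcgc

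GAGGAA was found 48 bases before the start of P2ry13 and, on the opposite strand, 28 bases before that of Adora3. It was also found before the second of 2 RefSeq starts of Entpd1, beginning 235 and 227 bases upstream. It was present in 23.4% of the 32536 distinct promoters of the same length. P2ry12 held ACGTG on both strands as 1 overlapping CACGTG, beginning 228 bases before its start, and ACGTG was present in 16.7% of all promoters. The Adora2b window held neither motif and had a G and C content of 69.6%, against 41.6% in P2ry12 and P2ry13. Neither motif was found before either start of P2rx7 or the first start of Entpd1, genes that were lower in tumors. Neither was found before P2rx4 or Nt5e. Whether the motifs bear on the direction of change was not tested. TGACGTCA, the cAMP response element, and an interferon response motif (GAAA, NN and GAAA in a row) were found in none of the 8 members' windows and in 1.6% and 3.0% of all promoters.

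Values are given as RPKM, reads scaled to gene length and library size, so that levels of different genes may be set side by side. Between 9327 and 9820 protein-coding genes reached 1 RPKM in a sample, and the read depth behind the values is unknown. Markers of the sorted cells were present in every group: the summed RPKM of 7 microglial genes was 7593 to 8018 in naive samples, 494 to 1156 in the tumors at 21 days, 561 to 1314 at 28 days and 2216 to 4477 in the U87-MG series. The summed level of 8 monocyte and macrophage genes was 41.3 to 44.3 in naive samples, 1855 to 2844, 464 to 1342 and 128 to 295 in the same order. The sums for neutrophil markers ran from 22.5 to 313 and those for oligodendrocyte markers from 10.38 to 20.1 RPKM. Markers of T cells (at most 6.73), B cells (at most 1.81), neurons (at most 4.71) and astrocytes (at most 7.72) were low throughout.

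**Figure D1:**
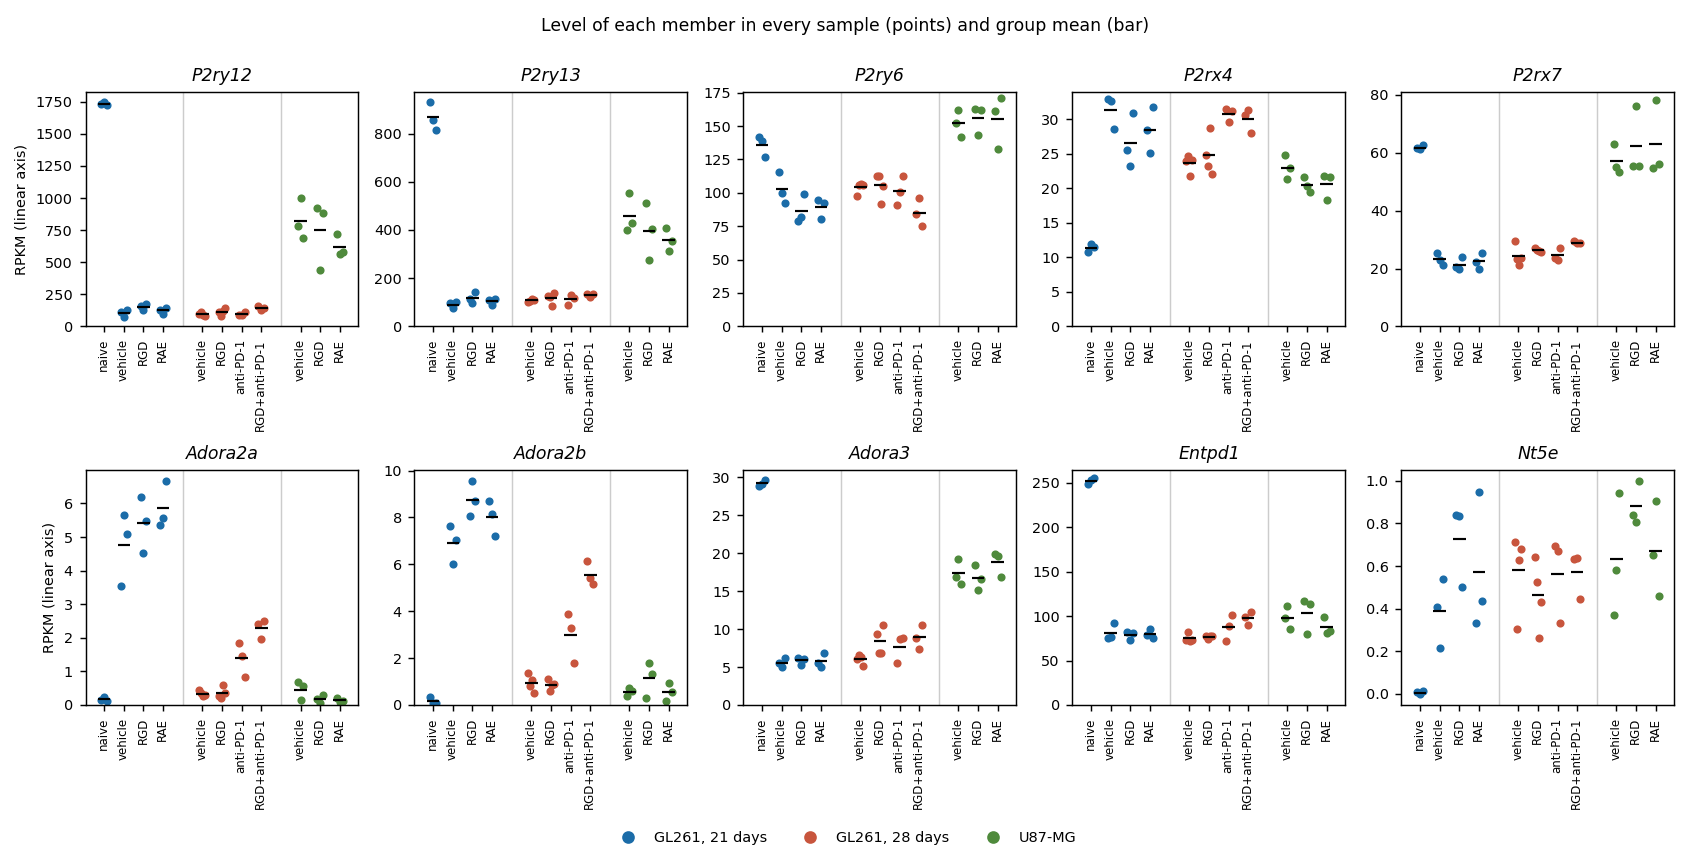
Each panel plots the RPKM of one gene (linear axis) in every sample as a point and the group mean as a bar, for the 3 tables separated by grey lines. P2ry12, P2ry13, P2rx7, Adora3 and Entpd1 were highest in the naive samples within the table at 21 days, whereas Adora2a and Adora2b were highest in tumors, and the Nt5e axis ends near 1 RPKM.

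The first question was how the receptors of CD11b+ cells in a GL261 tumor differ from those in naive brain. P2ry12, P2ry13, P2ry6, P2rx7, Adora3 and Entpd1 were lower in vehicle-treated tumors than in naive brain, and P2rx4, Adora2a and Adora2b were higher. Thus 9 of the 10 members were tested and all 9 passed the threshold (adjusted p under 0.05 in limma), 6 lower and 3 higher. This has to be read against a background in which 82.9% of all 9727 genes tested passed (34.6% higher and 48.2% lower). Adora2a and Adora2b reached the mean of 1 RPKM required for testing only through the tumor samples, so that a higher call was favored. The median difference of the 9 members was −1.38 on the log2(RPKM + 1) scale, against −0.14 for all genes. Sequencing of a sorted mixture cannot tell fewer cells of a type from less RNA of the gene per cell.

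P2ry12 was at 1735, 1745 and 1728 RPKM in the 3 naive samples and at 111, 75.1 and 125 RPKM with vehicle. The groups did not overlap, as held for all 9 members tested and for 85.4% of all genes, and the naive mean was 16.8-fold the vehicle mean (log2 difference −4.08 ± 0.17 (SE), adjusted p = 1.63e-07). P2ry13, which encodes another ADP receptor, was at 931, 855 and 816 RPKM in naive and at 95.2, 74.2 and 99.6 RPKM in vehicle samples. Its naive mean was 9.68-fold higher (−3.27 ± 0.11, adjusted p = 7.98e-08). P2ry6, the receptor for UDP that is linked to phagocytosis, was at 142, 139 and 127 RPKM in naive and at 116, 100 and 92.2 RPKM in vehicle samples. It fell least of the P2Y genes, with a naive mean 1.32-fold higher (−0.41 ± 0.09, adjusted p = 0.0031).

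The share of P2ry12 in the summed level of these 3 P2Y genes was 63.4% ± 1.5 (SD, n = 3) in naive and 34.7% ± 4.7 (SD, n = 3) in vehicle samples. The 7 microglial marker genes were also lower, from 7.48-fold for Olfml3 to 19.9-fold for Fcrls, with Tmem119 at 10.1-fold and Sall1 at 11.3-fold. P2ry12 and P2ry13 lay within the range of these 7 genes, whereas P2ry6, P2rx7 (2.66-fold), Entpd1 (3.11-fold) and Adora3 (5.23-fold) lay below it. The part of cell composition in these differences was not tested.

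**Figure D2:**
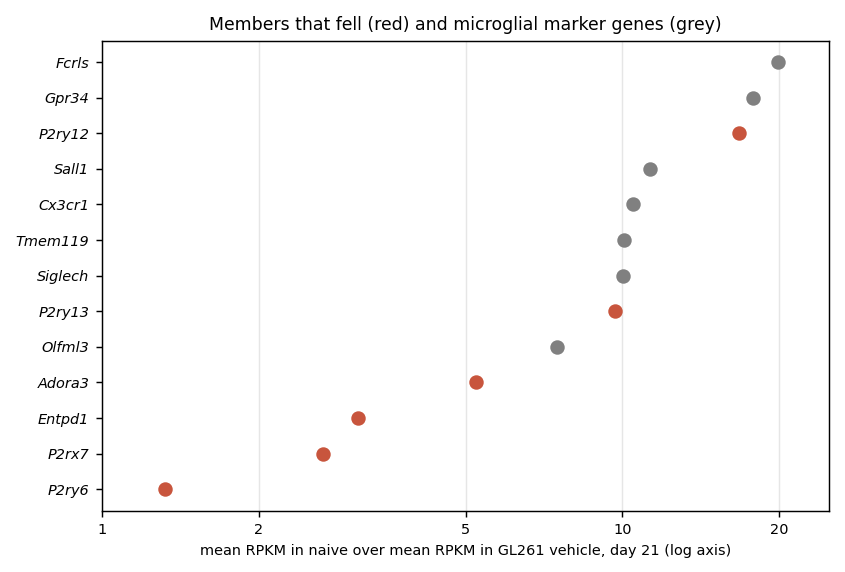
The ratio of mean RPKM in naive over vehicle samples at 21 days (log axis, 3 samples per group) is plotted for the 6 members that fell (red) and for 7 microglial marker genes (grey). P2ry12 (16.8-fold) and P2ry13 (9.68-fold) lie among the markers, between Olfml3 at 7.48-fold and Fcrls at 19.9-fold, and the other 4 members lie to their left.

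The P2X channels moved apart. P2rx7, the ATP-gated channel that starts inflammasome activation, was at 61.6, 61.2 and 62.6 RPKM in naive and at 25.4, 23.1 and 21.2 RPKM in vehicle samples (−1.38 ± 0.07, adjusted p = 4.76e-07). P2rx4, a more ATP-sensitive channel found largely in lysosomes, was at 10.8, 11.9 and 11.5 RPKM in naive and at 32.9, 32.7 and 28.6 RPKM in vehicle samples. It was thus 2.76-fold higher in tumors (1.38 ± 0.07, adjusted p = 4.8e-07). The ratio of P2rx4 to P2rx7 went from 0.185 ± 0.0089 (SD, n = 3) in naive to 1.36 ± 0.059 (SD, n = 3) in vehicle samples.

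At 21 days the adenosine receptors changed over in kind between naive and vehicle samples. Adora3, the gene of the A3 receptor, was at 28.8, 29.1 and 29.7 RPKM in naive and at 5.57, 5.04 and 6.15 RPKM in vehicle samples (−2.20 ± 0.07, adjusted p = 5.13e-08). Adora2a was at 0.139, 0.236 and 0.117 RPKM in naive and at 3.54, 5.65 and 5.09 RPKM in vehicle samples (2.29 ± 0.14, adjusted p = 1.2e-06). Adora2b, whose product needs higher adenosine concentrations, was at 0.335, 0.0804 and 0.0611 RPKM in naive and at 7.62, 6.03 and 7.02 RPKM in vehicle samples (2.77 ± 0.11, adjusted p = 1.65e-07). All groups were separated for these 3 genes. Adora2a and Adora2b together made up 1.10% ± 0.51 (SD, n = 3) of the summed adenosine receptor level in naive samples and 67.6% ± 2.0 (SD, n = 3) with vehicle, and the sum itself was 29.5 and 17.2 RPKM. In the same samples the sums of some other markers were also higher in tumors. Dendritic cell markers were at 13.4 to 16.1 RPKM in naive and 65.9 to 74.2 RPKM with vehicle. NK cell markers were at 0.19 to 0.464 and 4.44 to 14.4 RPKM, and endothelial markers at 2.90 to 3.10 and 14.7 to 25.4 RPKM. Single genes made up much of 2 of these rises. Mean Ccr7 was 0.292 RPKM in naive and 44.7 RPKM with vehicle, but Cd209a was 13.1 and 18.7 RPKM and Xcr1 near 0. Mean Flt1 was 0.218 and 11.5 RPKM and Kdr 1.84 and 6.98 RPKM, but Cdh5 was 0.777 and 0.787 RPKM. The part of these cells in the receptor values was not tested. No fold is given for Adora2a and Adora2b because their naive levels were close to 0. In the other tables Adora3 made up most of the adenosine receptor level with vehicle. The share of Adora2a and Adora2b there was 17.3% ± 4.0 (SD, n = 4) at 28 days and 5.61% ± 1.3 (SD, n = 3) in U87-MG.

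**Figure D3:**
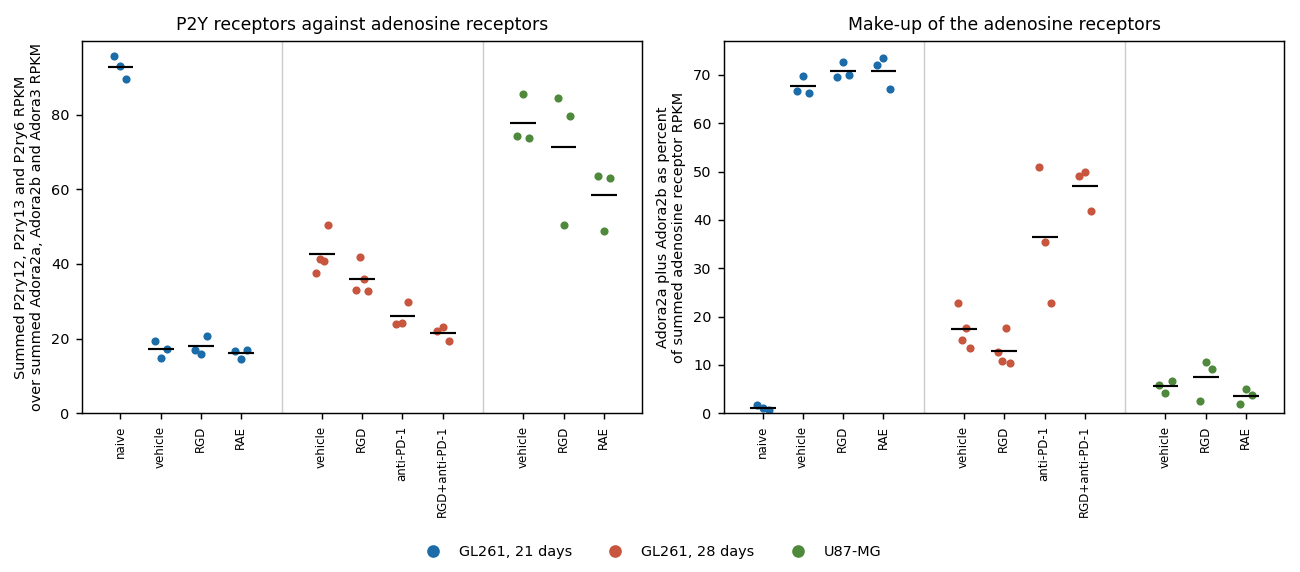
Left, the summed RPKM of P2ry12, P2ry13 and P2ry6 divided by that of Adora2a, Adora2b and Adora3; right, Adora2a plus Adora2b as a percent of the summed adenosine receptor RPKM, in every sample (points) with group means (bars). The ratio was 89.6 to 95.8 in naive samples, 14.9 to 19.3 with vehicle at 21 days, 37.7 to 50.4 with vehicle at 28 days and 73.7 to 85.5 in vehicle-treated U87-MG samples.

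Entpd1, which starts the conversion of ATP to adenosine, was at 249, 253 and 255 RPKM in naive and at 74.8, 76.3 and 92.2 RPKM in vehicle samples (−1.63 ± 0.08, adjusted p = 5.37e-07). Nt5e, whose product completes that conversion, was under the limit of a mean of 1 RPKM and was not tested with the others. It was at 0.0062, −0.0022 and 0.0124 RPKM in naive and at 0.41, 0.217 and 0.541 RPKM in vehicle samples. Without the limit its log2 difference was 0.46 ± 0.08 (adjusted p = 0.00444), and its highest level in any of the 35 samples was 1.00 RPKM. Negative values arise because a constant was removed from the deposited values.

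Other genes of the pathway were read from lists chosen by name, with earlier results of these data known. Among 6 other P2Y genes, 4 were tested, 3 were higher and 1 was lower in tumors: P2ry14 (0.0314 to 5.77 RPKM, log2 difference 2.70), P2ry10 (2.88) and P2ry2 (0.216 to 3.34 RPKM, 1.84) rose and P2ry10b (−1.51) fell. P2ry14 encodes the receptor for UDP-glucose and P2ry2 a receptor for ATP and UTP. Of the 5 other P2X genes only P2rx1 was tested (4.93 to 1.5 RPKM, −1.26), and P2rx5 was at 0.0253 and 0.384 RPKM. Adora1, the A1 receptor gene, rose from 0.245 to 1.87 RPKM (1.2). P2ry14, P2ry2 and Adora1 reached the mean of 1 RPKM required for testing only through the tumor samples, so that a higher call was favored. The same holds for other tested genes of these lists with a naive level under 1 RPKM.

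Of 13 other ectoenzymes of nucleotides 7 were tested, of which 3 rose, 1 fell and 3 did not pass. Bst1 (0.407 to 26.2 RPKM, log2 difference 4.27) and Cd38 (0.739 to 19.1 RPKM, 3.54), which both cleave NAD, rose most, Enpp4 rose by less (0.56) and Entpd5 fell (−0.63). Bst1 and Cd38 also reached the limit for testing only through the tumor samples, which favored a higher call. Among 13 genes of adenosine handling 10 were tested, 5 rose and 4 fell. Ada, which deaminates adenosine (0.67), Pnp (28.8 to 47.7 RPKM, 0.70), Dpp4 (1.93), the concentrative transporter Slc28a2 (2.90) and Ahcy (0.80) rose, whereas the equilibrative transporters Slc29a1 (−1.66) and Slc29a3 (160 to 77.6 RPKM, −1.05), Nt5c2 (−0.41) and Ampd3 (−0.84) fell. Of 5 genes linked to ATP release 3 were tested: Panx1, the pannexin channel (2.12 to 5.26 RPKM, 1.00), rose, and Slc17a9 (−0.92) and Lrrc8a (5.47 to 1.88 RPKM, −1.17) fell.

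Downstream of the receptors, 15 of 16 genes of G proteins and cAMP signaling were tested, 5 rose and 9 fell. The phosphodiesterase Pde4b (log2 difference 1.32) and Crem (1.67), a cAMP-responsive transcription factor, rose most, followed by Gna13 (0.34), Gnai3 (0.14) and Gnai2, which encodes the inhibitory subunit used by P2RY12 (301 to 331 RPKM, 0.14). The potassium channel Kcnk13 (−2.0) and the adenylyl cyclase Adcy9 (−1.98) fell most, and Prkacb (−1.03), Gna11 (−0.95), Creb1 (−0.65), Prkaca (−0.51), Gnaq (−0.47), Prkar1a (92.2 to 73.5 RPKM, −0.33) and Gnas (−0.30) fell by less. Among 7 genes downstream of P2X7 all were tested, and Il1b (16.7 to 453 RPKM, 4.68), Gsdmd (28.5 to 59.4 RPKM, 1.03), Casp1 (1.02) and Il18 (0.35) rose whereas Nek7 (−0.90) and Nlrp3 (−0.63) fell. Adjusted p of the pathway genes named as changed lay between 3e-09 and 0.0394, with the same background of 82.9%.

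The next question was whether the RGD peptide altered these genes in GL261 tumors at 21 days. None of the 9 members tested passed the threshold with RGD against vehicle, where 0.148% of 9440 genes passed. An unadjusted p under 0.05 was found for 3 of the 9 members and for 13.5% of all genes. P2ry12 was at 156, 127 and 178 RPKM with RGD, each above the highest vehicle sample at 125 RPKM (log2 difference 0.58 ± 0.21, adjusted p = 0.287). Adora2b was at 8.05, 9.54 and 8.70 RPKM with RGD, above the vehicle range of 6.03 to 7.62 RPKM (0.31 ± 0.09, adjusted p = 0.247). P2ry13 was at 114, 98.8 and 142 RPKM and overlapped the vehicle samples by 1 value (0.39 ± 0.15, adjusted p = 0.313). Groups did not overlap in 17.6% of all genes in this comparison, and in 2 of the 9 members. The summed microglial markers were 866 to 1156 RPKM with RGD and 494 to 789 RPKM with vehicle, and the dendritic cell sum was 80.1 to 96.1 against 65.9 to 74.2 RPKM and the T cell sum 3.25 to 6.73 against 0.295 to 2.88 RPKM. The part of these cells in the P2ry12 and Adora2b values was not tested.

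With the control peptide RAE against vehicle none of the 9 members passed, none had an unadjusted p under 0.05, and differences ran from −0.20 to 0.27. No gene of 9440 (0%) passed in limma, and 600 had an unadjusted p under 0.05. P2ry12 was at 126, 99.9 and 147 RPKM with RAE, between the other groups. The peptides differ in the motif alone, and between RGD and RAE none of the 9 members passed (0% of all genes by limma, while 520 genes had an unadjusted p under 0.05). The interval of this difference was −0.15 to 0.77 for P2ry12 (0.31 ± 0.21, adjusted p = 0.992), −0.10 to 0.33 for Adora2b and −0.43 to 0.23 for Adora2a. These comparisons share the vehicle and RGD samples and are not independent of each other.

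**Figure D4:**
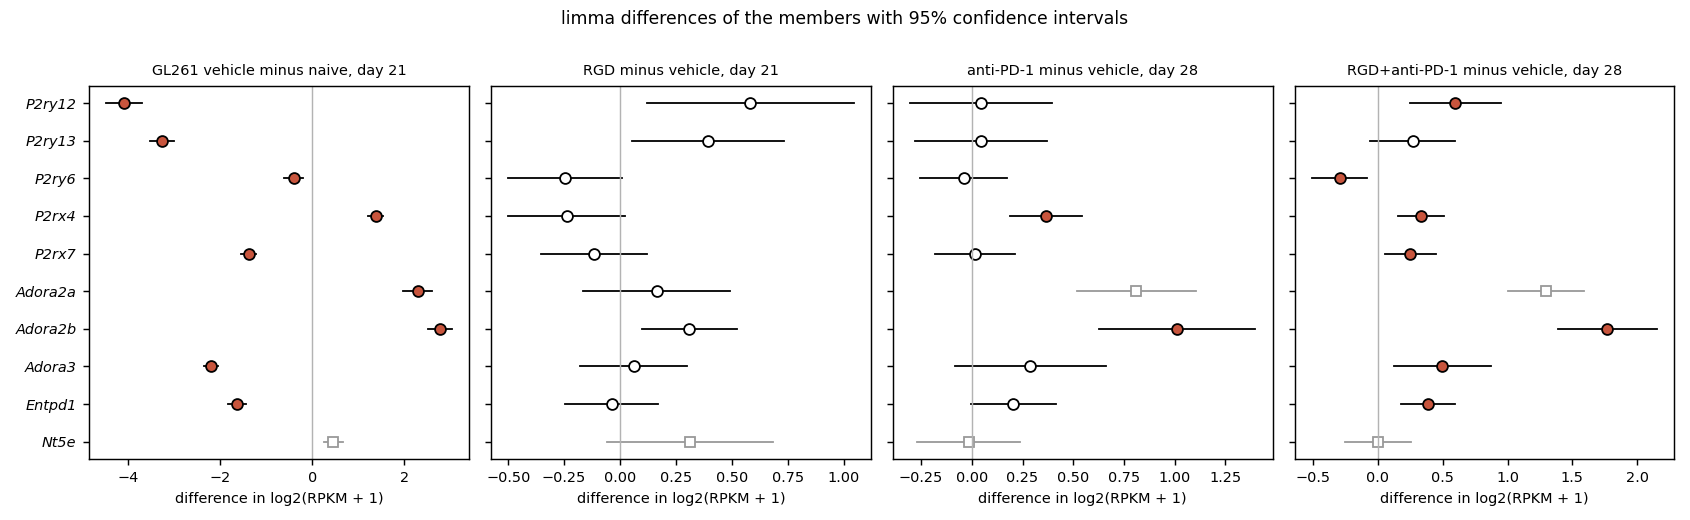
Differences in log2(RPKM + 1) from limma (points) with 95% confidence intervals (lines) are shown for the 10 members in 4 comparisons, with an axis scale of its own for each. Red circles passed an adjusted p of 0.05, white circles did not, and grey squares are genes below the limit of a mean of 1 RPKM; Adora2b is red in 3 of the 4 panels.

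At 28 days the RGD peptide alone was again compared with vehicle, and none of the 8 members tested passed (0.647% of 9737 genes did). Adora3 was at 9.36, 6.80, 6.78 and 10.6 RPKM with RGD, all above the vehicle values of 6.09, 6.54, 6.27 and 5.10 RPKM (0.40 ± 0.16, adjusted p = 0.264). The microglial sum was 815 to 1314 RPKM with RGD, highest in the sample with 10.6 RPKM of Adora3, and 561 to 876 RPKM with vehicle, and its part was not tested. Groups did not overlap in 8.02% of all genes. P2ry12 was at 115, 82.9, 119 and 146 RPKM with RGD and at 96.6, 109, 90.7 and 80.4 RPKM with vehicle, which overlapped. Differences of the other 7 members lay between −0.05 and 0.28. Adora2a, below the limit in this table, was at 0.211 to 0.598 RPKM with RGD and at 0.271 to 0.449 RPKM with vehicle.

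The anti-PD-1 antibody was given to learn whether the changes under RGD improve checkpoint blockade, and the antibody alone came in CD11b+ cells with higher Adora2b, Adora2a and P2rx4. Of 8 members tested 2 passed against vehicle and both were higher, where 10.8% of all genes were called higher and 23.1% in either direction. Adora2b reached the mean of 1 RPKM required for testing only through the groups with antibody, so that a higher call was favored. Its means were 0.945 RPKM with vehicle and 0.858 RPKM with RGD. Adora2b was at 1.35, 0.829, 1.08 and 0.519 RPKM with vehicle and at 3.87, 3.28 and 1.79 RPKM with anti-PD-1. The groups were apart, as in 32.5% of all genes, and the mean was 3.16-fold higher (1.01 ± 0.18, adjusted p = 0.00184). P2rx4 was at 24.0, 24.7, 21.8 and 24.1 RPKM with vehicle and at 31.5, 29.6 and 31.2 RPKM with anti-PD-1, 1.30-fold higher (0.37 ± 0.08, adjusted p = 0.00695). P2ry12, P2ry13, P2ry6, P2rx7, Adora3 and Entpd1 overlapped vehicle and did not pass, with differences of −0.04 to 0.29.

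Adora2a was at 0.449, 0.348, 0.271 and 0.283 RPKM with vehicle and at 1.85, 1.47 and 0.829 RPKM with anti-PD-1. In the fit without a limit on low values its log2 difference was 0.81 ± 0.14 (adjusted p = 0.00291). The same samples also differed in markers of other cells. The sum of 6 dendritic cell genes was 1.00 to 2.86 RPKM with vehicle and 4.04 to 17.4 RPKM with anti-PD-1, with Xcr1 near 0 in both groups, and that of 4 NK cell genes was 1.73 to 7.96 and 1.47 to 45.6 RPKM. The sum of 4 endothelial genes was 2.93 to 5.77 and 5.58 to 12.5 RPKM. Of these, mean Flt1 was 1.80 RPKM with vehicle and 6.18 RPKM with anti-PD-1, while Cldn5 was lower, at 0.933 and 0.692 RPKM. The monocyte and macrophage sum was 524 to 779 RPKM with vehicle and 890 to 1342 RPKM with anti-PD-1, without overlap. In that list Ly6c2 was 4.96-fold and Plac8 5.81-fold the vehicle mean, while Ms4a7 was 1.42-fold and Lgals3 1.03-fold. Among the anti-PD-1 samples, Adora2a, Adora2b and the dendritic cell sum were lowest in the same sample, in which Adora2b was 1.79 RPKM and the dendritic cell sum 4.04 RPKM. The NK cell (1.47 RPKM), neutrophil (149.5 RPKM), T cell (0.901 RPKM) and B cell (0.093 RPKM) sums were also lowest in that sample. Its microglial (1046 RPKM) and endothelial (12.5 RPKM) sums were the highest of the group. The part of these cells in the Adora2a and Adora2b values was not tested.

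With RGD and anti-PD-1 together, 7 of the 8 members tested passed against vehicle, 6 higher and 1 lower. Here and against RGD alone, Adora2b was among the 8 only through the groups with antibody. Of all genes 43.3% passed, 17.5% higher and 25.8% lower, and the median difference of the 8 members was 0.36 against −0.05 for all genes. Adora2b was at 6.15, 5.40 and 5.14 RPKM, 5.89-fold the vehicle mean (1.77 ± 0.18, adjusted p = 9.41e-06). Adora2a was at 2.40, 1.97 and 2.49 RPKM, all above every other sample of the table (1.30 ± 0.14, adjusted p = 4.34e-05 in the fit without a limit). Adora3 was at 8.84, 7.37 and 10.6 RPKM, above the vehicle range (0.50 ± 0.17, adjusted p = 0.0333). Adora2a and Adora2b made up 17.3% ± 4.0 (SD, n = 4) of the adenosine receptor level with vehicle, 12.9% ± 3.3 (SD, n = 4) with RGD, 36.4% ± 14.1 (SD, n = 3) with anti-PD-1 and 47% ± 4.5 (SD, n = 3) with the combination.

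P2ry12 was at 161, 125 and 143 RPKM with the combination, above the vehicle maximum of 109 RPKM (0.60 ± 0.16, adjusted p = 0.00962). P2ry13, at 136, 122 and 133 RPKM, also lay above all vehicle samples (103, 105, 114 and 111 RPKM) but did not pass (0.27 ± 0.15, adjusted p = 0.17). P2ry6 went the other way, at 84.1, 95.8 and 75.4 RPKM against 97.9, 106, 107 and 106 RPKM (−0.30 ± 0.10, adjusted p = 0.0274). Groups did not overlap in 48.8% of all genes. P2rx4 was at 30.6, 31.4 and 28.0 RPKM (0.33 ± 0.08, adjusted p = 0.00585), and P2rx7 was at 29.4, 28.8 and 28.7 RPKM with 1 vehicle sample at 29.5 RPKM (0.25 ± 0.09, adjusted p = 0.0419). Entpd1 was at 99.0, 90.1 and 105 RPKM against 72.9, 81.6, 72.4 and 72.6 RPKM with vehicle (0.38 ± 0.10, adjusted p = 0.00634), while Nt5e was at 0.447 to 0.636 against 0.306 to 0.711 RPKM.

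The calls of P2ry6 and Adora3 against vehicle each held in 9 of 15 alternatives, and that of P2rx7 in only 6 of 15. With single samples left out the adjusted p went up to 0.138 for P2ry6, 0.145 for Adora3 and 0.11 for P2rx7. P2ry6 and Adora3 were farthest from the threshold without the combination sample with the lowest P2ry6 (75.4 RPKM). The summed microglial markers were 561 to 876 RPKM with vehicle and 1086 to 1156 RPKM with the combination, the dendritic cell sum was 12.4 to 16.6 RPKM, and the NK cell sum 16.7 to 59.8 RPKM. With the combination the endothelial sum was 8.22 to 13.5 RPKM, above the vehicle range. Mean Flt1 was 7.33 RPKM against 1.80 RPKM with vehicle, while Cldn5 was lower, at 0.603 against 0.933 RPKM. The monocyte and macrophage sum was 774 to 1059 RPKM, which overlapped vehicle (524 to 779 RPKM). Plac8 was 10.3-fold, Ly6c2 5.87-fold and S100a4 5.16-fold the vehicle mean, and Ccr2 and Vim were 2.43-fold and 2.14-fold. In the same list Chil3 was 0.50-fold, Ms4a7 0.953-fold and Lgals3 0.955-fold the vehicle mean. The part of these cells in the member values was not tested.

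Between the combination and anti-PD-1 alone none of the 8 members passed (0.0411% of all genes did). An unadjusted p under 0.05 was found for 4 of the 8 members and for 15% of all genes. Adora2b was 1.87-fold higher with the combination with no overlap (0.76 ± 0.19, adjusted p = 0.0944), and P2ry12 was 1.47-fold higher, also with no overlap (0.55 ± 0.17, adjusted p = 0.161). P2rx7 did not overlap either (0.23 ± 0.10, adjusted p = 0.287), while P2ry6 did (−0.26 ± 0.11, adjusted p = 0.28). Adora2a, in the fit without a limit, differed by 0.48 ± 0.14 (adjusted p = 0.203). Groups did not overlap in 21.5% of all genes here.

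Against RGD alone the combination was higher in Adora2b (6.48-fold, 1.82 ± 0.18, adjusted p = 2.35e-05), Entpd1 (0.34 ± 0.10, adjusted p = 0.0142) and P2rx4 (0.27 ± 0.08, adjusted p = 0.0203) and lower in P2ry6 (−0.31 ± 0.10, adjusted p = 0.0254), that is in 4 of 8 members against 36.5% of all genes. P2rx7 did not pass although its groups were apart (0.13 ± 0.09, adjusted p = 0.273; 40.4% of all genes did not overlap). Adora2a passed in the fit without a limit (1.28 ± 0.14, adjusted p = 0.000115). Without the combination sample with 75.4 RPKM of P2ry6, the adjusted p of Entpd1 was 0.0655 and that of P2ry6 0.127. The call of P2rx4 against RGD held in 10 of 15 alternatives, with an adjusted p of up to 0.0753.

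The interaction term asked whether the effect of RGD differed with and without the antibody. No member and no gene of 9737 (0%) passed in limma, and 794 genes had an unadjusted p under 0.05. Adora2b was the member with the largest term among those tested (0.81 ± 0.25, 95% interval 0.27 to 1.35, adjusted p = 0.588), and Adora2a followed in the fit without a limit (0.47 ± 0.19, adjusted p = 0.669). Terms of the other 7 members tested lay between −0.27 and 0.28.

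Other genes of the pathway at 28 days were counted in the same lists. Their counts with anti-PD-1 against vehicle have a background of 10.8% of all genes called higher and 12.2% called lower. With anti-PD-1 against vehicle, P2ry2 fell (7.01 to 3.99 RPKM, log2 difference −0.67), Bst1 rose (9.72 to 25.2 RPKM, 1.28) and Cd38 fell (48.0 to 33.0 RPKM, −0.52), so that the NAD-cleaving genes that rose together in tumors at 21 days moved apart. In adenosine handling 3 of 10 tested rose, Slc29a3 (56.7 to 71.3 RPKM, 0.33), Slc28a2 (0.76) and Ampd3 (0.33), and Slc29a1 fell (−0.33). Panx1 (6.35 to 4.82 RPKM, −0.34) and Prkacb (−0.26) fell, and of the 7 genes downstream of P2X7, Casp1 (0.47) and Gsdmd (48.3 to 66.8 RPKM, 0.45) rose. Adora1 (3.13 and 5.47 RPKM) and P2rx1 (2.08 and 2.67 RPKM) did not pass, and P2ry14 was at 6.25 and 5.32 RPKM.

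With the combination against vehicle, P2ry10 (1.03) rose and P2ry2 fell further (2.25 RPKM, −1.29). All counts of this comparison have a background of 17.5% of all genes called higher and 25.8% called lower. Of 7 other ectoenzymes tested Bst1 rose (30.2 RPKM, 1.56) and Cd38 (27.4 RPKM, −0.78), Enpp1 (−0.75) and Entpd6 (−0.28) fell. In adenosine handling 3 rose, Pnp (23.6 to 31.9 RPKM, 0.43), Slc29a3 (76.4 RPKM, 0.43) and Ampd3 (0.55), and 3 fell, Ada (−0.47), Slc29a1 (−0.47) and Slc29a2 (−0.37). Panx1 (3.75 RPKM, −0.63) and Slc17a9 (−0.33) fell, with Lrrc8a at 3.59 and 2.66 RPKM. Crem (0.65) and Creb1 (0.49), both cAMP-responsive transcription factors, rose, and Kcnk13 (−0.40), Prkacb (−0.33) and Gnaq (−0.16) fell, while Gnai2 was at 283 and 280 RPKM and Prkar1a at 49.4 and 56.1 RPKM. Il1b (140 to 373 RPKM, 1.40), Nlrp3 (0.66), Casp1 (0.60) and Gsdmd (61.9 RPKM, 0.35) rose, that is 4 of 7 genes downstream of P2X7 against 17.5% of all genes. These are RNA levels, and the activity of P2X7 was not measured. The adjusted p of these pathway calls with the antibody lay between 2.75e-05 and 0.0441.

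Between the combination and RGD alone 36.5% of all genes passed. Against RGD alone, the combination differed in the same lists in P2ry2 (−1.22), P2ry10 (1.22), Bst1 (1.36), Cd38 (−0.57), Enpp1 (−0.70), Ampd3 (0.49), Pnp (0.40), Ada (−0.47), Slc29a1 (−0.45), Ahcy (−0.43) and Nt5c2 (−0.29). It also differed in Panx1 (−0.39), Slc17a9 (−0.34), Lrrc8a (−0.47), Crem (0.89), Creb1 (0.48), Kcnk13 (−0.59), Prkacb (−0.35), Gnaq (−0.18), Il1b (1.60), Casp1 (0.65), Nlrp3 (0.50) and Gsdmd (0.32). Against anti-PD-1 alone none of the listed genes passed, and none did with RGD alone at 28 days or in any peptide comparison at 21 days.

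In nude mice with U87-MG tumors the question was again whether the peptides altered these genes, and the CD11b+ cells had high P2Y and low Adora2a and Adora2b levels. With vehicle, P2ry12 was at 781, 998 and 691 RPKM, P2ry13 at 398, 552 and 427 RPKM and P2ry6 at 152, 162 and 142 RPKM. Adora3 was at 16.8, 19.2 and 16.0 RPKM and P2rx7 at 63.0, 55.2 and 53.5 RPKM, while P2rx4 was at 24.8, 21.3 and 22.9 RPKM. Adora2a and Adora2b were low, at 0.135 to 0.669 and 0.382 to 0.716 RPKM, and Entpd1 was at 85.0 to 111 RPKM and Nt5e at 0.372 to 0.943 RPKM. Host strain, tumor line and table differ between these values and those of GL261, so that they cannot be told apart.

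Neither peptide changed a member past the threshold in these mice, and of the 7 members tested none had an unadjusted p under 0.05. With RGD, P2ry12 was at 921, 443 and 881 RPKM and P2ry13 at 511, 275 and 406 RPKM. The sample with the lowest values of both also had the lowest sum of microglial markers of this table (2216 RPKM) and the highest P2rx7 of its group (76.2 RPKM). With RAE, P2ry12 was at 718, 565 and 583 RPKM and P2ry13 at 408, 312 and 355 RPKM, which overlapped vehicle. Against vehicle the differences of P2ry12 were −0.19 (95% interval −0.80 to 0.42) with RGD and −0.40 (−1.0 to 0.21) with RAE, and between the peptides 0.20 (−0.41 to 0.81). In limma 0% of 9664 genes passed with RGD against vehicle and between the peptides, where 365 and 326 genes had an unadjusted p below 0.05, and 0.0103% passed with RAE against vehicle. No listed pathway gene passed in any of these 3 comparisons. Adora2b ranged from 0.277 to 1.77 RPKM with RGD and from 0.157 to 0.955 RPKM with RAE and overlapped vehicle.

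Ordered by level within each table, P2ry12 stood as naive, RGD, RAE and vehicle at 21 days, and as combination, RGD, anti-PD-1 and vehicle at 28 days. Neighbors in that order overlapped except for naive and RGD. Adora2b stood as RGD, RAE, vehicle and naive at 21 days, where the last pair was apart, and as combination, anti-PD-1, vehicle and RGD at 28 days, where the first 3 were apart from each other. Adora2a had the order RAE, RGD, vehicle and naive at 21 days, with the last pair apart, and combination, anti-PD-1, RGD and vehicle at 28 days, with the last pair overlapping. In the U87-MG table every neighboring pair overlapped for all 10 members.

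The genes whose values followed a member most closely over tumor-bearing samples of all 3 tables (9, 14 and 9 samples) are given as a description. For P2ry12 they were Gpr155, Clstn1 and Inka1, with a lowest Pearson r over the tables of 0.922, 0.913 and 0.906 among 8911 genes. For P2ry13 they were Abhd6, Rps6ka1 and Gbf1 (0.856, 0.804 and 0.743). The leading gene was Fkbp8 for P2ry6 (0.729), Vps35l for P2rx4 (0.768), Zfyve1 for P2rx7 (0.677), Otud7b for Adora3 (0.733) and Slc7a8 for Entpd1 (0.751). Samples of a table share its groups and its normalization. Adora2a, Adora2b and Nt5e had too low a level in at least 1 table for this comparison.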

How the data were processed

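RNA of FACS-sorted CD11b+ cells was sequenced by the authors in 35 samples analysed here. Per the labels and the study's methods, reads were trimmed with Trimmomatic, aligned to mm10 with STAR and counted per gene with HTSeq 0.11.1 in reverse-stranded mode. The authors deposited normalized values in 3 tables, which were taken as RPKM plus a constant of 2. This constant was subtracted here, and small negative remainders were kept. The residuals of the deposited RPKM values vary in fewer directions than an unadjusted table would in 2 of the tables, which can make p-values too small, and the step behind it is not given in the sources used here. Depth is unknown, and no count test was run. The study tested with NOISeq, which was not used here.

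The annotation gave a symbol to 98.8% of row names, of which 21894 named protein-coding genes. Values were tested as log2(RPKM + 1), a scale that understates changes of low genes, with limma 3.58.1 in R 4.3.3 (moderated test with trend) where a gene averaged 1 RPKM or more in the fitted samples. P-values were two-sided and Benjamini-Hochberg adjusted over all genes tested, with a threshold of 0.05. Naive and vehicle samples were fitted alone, and other comparisons shared the spread of all tumor-bearing groups of their table. P-values measure the spread between samples. Members below the limit were fitted without it. The fit was tested on simulated data.

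All 10 members were named. Statistics are given for those past the threshold, with an unadjusted p under 0.05 or with groups that did not overlap. Other pathway genes were named where they passed, together with the highest 2 of each list. The members, lists and markers were chosen with earlier results of these data known. No pairing was used. Same-numbered samples deviated together in few cases. An unknown step in the deposited values could have removed a shared component, so that this does not decide whether they were paired. Alternatives varied the pseudocount, filter, scaling, samples fitted and replicate block, and left out each sample in turn. One microglial marker is not reported here.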

Additional observations from a re-analysis of the deposited data

Results flagged for a closer look

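Each member was checked in the groups of 4 samples at 28 days for a sample far from the rest, 20 checks in all, of which chance alone marks about 1 in 20. P2ry6 with vehicle was 97.9 RPKM in sample 1, against 106 to 107 RPKM in the other 3, a gap of 0.886 of the range of the group (critical value 0.829). Entpd1 with vehicle was 81.6 RPKM in sample 2, against 72.4 to 72.9 RPKM in the others, a gap of 0.942 of the range.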

How the results depend on the processing

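Of 259 member values recomputed under other settings, 248 kept their direction and side of the threshold, 10 no longer passed, 1 newly passed and 0 changed direction. Of 270 with 1 sample left out, 247 kept both and 23 no longer passed. P2ry13 passed with the combination against vehicle when only those groups were fitted (adjusted p = 0.0142, limma), and P2rx7 (0.0541) and Adora3 (0.058) did not pass without a filter. Counts of all genes moved more, and the cause was not tested. For RGD against vehicle at 21 days, 14 genes became 0 with a pseudocount of 0.1, a filter of 5 RPKM or median-of-ratios scaling, 37 without a filter, 1 with only both groups and 74 with all 4 groups. With 1 sample left out it ranged from 0 to 120, the highest without vehicle sample 3. For RGD against RAE at 21 days, 0 became 7 without a filter, 6 with only both groups and 3 with all 4 groups, and 0 to 1 with 1 sample left out. RAE against vehicle gave 0 to 2. For naive against vehicle the 8059 genes became 5288 with a filter of 5 RPKM, where fewer genes are tested. At 28 days, RGD against vehicle went from 63 to 34 without a filter, 18 with median-of-ratios scaling, 0 with only both groups and 0 to 1 with any 1 sample left out. Anti-PD-1 against vehicle gave 1358 to 2254, the lowest without anti-PD-1 sample 2. The combination against anti-PD-1 went from 4 to 14 with a pseudocount of 5, 20 without a filter, 13 with a filter of 5 RPKM, 0 with only both groups and 0 to 26 with 1 sample left out, and the interaction from 0 to between 0 and 3. In U87-MG, RAE against vehicle went from 1 to 0 with a filter of 5 RPKM and 32 with only both groups. RGD gave 0 to 2 against vehicle and 0 to 3 against RAE, the highest without RGD sample 2.

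Correlations of same-numbered samples exceeded 0.1 in 1 of 9 pairs at 21 days and 3 of 19 at 28 days, and 1 of 9 and 3 of 14 samples matched their own number best. These are the tables whose residuals vary in fewer directions. The step behind that is unknown and could have removed a shared component. Whether same-numbered samples share more than a number therefore cannot be judged here. With the replicate number as a block, the counts were 0 for RGD against vehicle at 21 days, 0 at 28 days and 0 for the combination against anti-PD-1. In that block P2ry6 (adjusted p = 0.0536), P2rx7 (0.0831) and Adora3 (0.0617) did not pass with the combination against vehicle in limma, nor did P2ry6 (0.0526) and P2rx4 (0.066) against RGD. No paired analysis was possible because the U87-MG columns carry no replicate number, for that table.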
